A study of Rattus norvegicus with 8 samples.

Results

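The genes described here encode the peptide hormones of enteroendocrine cells in the upper gut (*Cck*, *Sct*, *Gip*, *Ghrl*, *Sst*, *Nts*, *Gcg* and *Tac1*) and the chromogranins of their secretory granules (*Chga* and *Chgb*). They were chosen by name, with earlier results of these data known. Each of the 10 genes had 1 probe set of its own among the 14217 genes that could be named on the Affymetrix Rat Genome 230 2.0 array. Of these, 8 were measured well enough to be compared between groups. *Gcg* and *Tac1* were too dim to compare and are given by level only. Gene expression was measured in intestinal epithelium of 4-month-old Wistar rats after water restriction (WR) for 12 h, or after 3 days on deep-sea water of 1200 hardness (DSW1200), on selenium water (SeW) or on tap water (TW), with 2 arrays in each of these 4 groups. By the study's methods the rats were female, the cells were shaken loose with EDTA from short proximal segments and passed through a nylon filter, and the selenium was sodium selenite. The labels do not say whether the 2 arrays of a group came from separate animals, so p-values measure only the spread between these arrays, which may be technical.

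Enteroendocrine cells are rare, scattered cells of the intestinal epithelium that sense the gut contents and release peptide hormones into the blood. Each hormone is made as a longer prohormone, cut and trimmed by processing enzymes, and stored in dense granules together with chromogranins until nutrients, acid or nerves trigger release. In the duodenum, I cells are known for cholecystokinin, S cells for secretin, K cells for the glucose-dependent insulinotropic peptide and D cells for somatostatin, while ghrelin comes mainly from the stomach and from fewer cells in the duodenum. L cells (proglucagon) and N cells (neurotensin) are more common further down the intestine, and tachykinin 1, the precursor of substance P, is made by serotonin cells and by neurons. A single cell can make several of these hormones.

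The deposited values were MAS5 signals on a linear scale, with array medians of 4.30 to 11.1, and they were quantile normalized here. All levels below are normalized signals unless stated otherwise, and all differences are log2 differences between group means from 1 limma fit over the 9258 genes whose mean signal was over 6.69, the median of all probe sets. Signals of different probe sets depend on the probes and were not set against each other. In the values as deposited, the median of the SeW minus TW differences over the tested genes was 0.92, against -0.042 after quantile normalization. Signal at the 3' end of beta-actin relative to its 5' end, a measure of RNA degradation or short copies, was 10.9 and 13.6 on the SeW arrays and 20.6 to 32.8 on the remaining 6. The correlation of log2 values between the 2 arrays of a group ran from 0.907 in TW to 0.949 in SeW. With 2 arrays against 2, the smallest two-sided exact permutation p for a single value is 0.333. In these bulk samples fewer cells of a type and less RNA per cell cannot be told apart.

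*Ghrl*, *Sst* and *Sct* had the lowest SeW levels relative to TW among the compared members, with log2 differences of -0.60 to -0.58. None of the differences passed the test over all genes. *Cck* was the only compared member whose mean was higher in SeW. In WR, *Sct* showed the widest difference from TW, and in DSW1200 the widest difference from TW was -0.33 log2 units (*Nts*). Each of these differences was obtained after quantile normalization. As deposited, *Ghrl*, *Sst* and *Sct* were higher in SeW than in TW, by less than the median gene.

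*Ghrl* encodes ghrelin, the acylated peptide that stimulates appetite and growth hormone release (probe set 1387254_at). Its signal was 129 and 146 on the WR arrays, 156 and 136 on the DSW1200 arrays, 86.9 and 90.7 on the SeW arrays, and 116 and 152 on the TW arrays. Both SeW arrays were below all other 6, while WR, DSW1200 and TW overlapped. The mean was 88.8 ± 2.72 in SeW and 134 ± 25.4 in TW (SD, n = 2 each), a log2 difference of -0.58 (SE 0.19, 95% interval -1.02 to -0.15, limma adjusted p = 0.144). Against DSW1200, whose mean was 146 ± 13.8, the SeW difference was -0.71 (SE 0.19, interval -1.15 to -0.28, limma adjusted p = 0.0846). Without TW replicate 1 this second difference passed the test (-0.72, adjusted p = 0.0492). The difference from TW ran from -0.78 to -0.38 with 1 array left out, the smaller value without TW replicate 2. The DSW1200 difference from TW was 0.13 (interval -0.30 to 0.56) and that of WR was 0.050 (interval -0.38 to 0.48). As deposited, the direction turned: *Ghrl* signals were 130.6 and 131.3 on the SeW arrays and 102 and 99.2 on the TW arrays. That is 0.38 log2 units higher in SeW, where the median gene was 0.92 higher, so *Ghrl* lay 0.54 below the median gene. In this comparison 12.9% of the tested genes lay lower still (12.1% after quantile normalization).

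*Sst* encodes somatostatin, which inhibits the release of most other gut hormones and of gastric acid (1367762_at). Its signal was 59.9 and 61.0 in WR, 74.3 and 72.3 in DSW1200, 42.4 and 55.9 in SeW, and 63.6 and 83.7 in TW. The SeW arrays were again below all others, and both WR arrays were below the DSW1200 and TW arrays. The SeW mean was 49.1 ± 9.55 and the TW mean 73.6 ± 14.2 (SD, n = 2 each), a log2 difference of -0.58 (SE 0.22, interval -1.08 to -0.09, limma adjusted p = 0.188). Against DSW1200, at 73.3 ± 1.40, the SeW difference was -0.59 (interval -1.09 to -0.10, adjusted p = 0.178). With 1 array left out the SeW difference from TW ran from -0.79 to -0.38, with the smallest value without TW replicate 2 and -0.39 without SeW replicate 1. The WR difference from TW was -0.27 (interval -0.77 to 0.22; -0.074 without TW replicate 2 and -0.47 without TW replicate 1), and DSW1200 lay at 0.0068 from TW. As deposited, *Sst* was 0.38 higher in SeW than in TW, which is 0.54 below the median gene. There 12.9% of the tested genes lay lower still (12.0% after quantile normalization).

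The sequences around the start sites of *Ghrl* and *Sst* are shown because these were the members whose SeW arrays lay below all 6 others after quantile normalization (in SeW both were higher than in TW as deposited). The share of all tested genes with this pattern was not counted. Both SeW arrays lay below both TW arrays for 29.1% of all genes, and below both DSW1200 arrays for 29.5%. The sequences come from RefSeq (build GRCr8), run 5′ to 3′ on the strand of the gene and span 300 bases each, of which the last 50 follow the annotated start. Capitals mark 2 motifs, searched on both strands: the cyclic AMP response element TGACGTCA, bound by CREB proteins, and the E-box CANNTG, bound by basic helix-loop-helix factors such as NeuroD1. The 2 motifs do not overlap in these windows.
Ghrl (chr4:148425175-148425474, minus strand): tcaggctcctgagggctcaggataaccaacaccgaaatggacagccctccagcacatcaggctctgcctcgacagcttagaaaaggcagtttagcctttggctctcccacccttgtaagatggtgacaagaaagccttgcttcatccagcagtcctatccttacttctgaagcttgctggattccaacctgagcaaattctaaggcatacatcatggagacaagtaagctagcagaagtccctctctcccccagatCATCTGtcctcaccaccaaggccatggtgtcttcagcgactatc
Sst (chr11:90461296-90461595, plus strand): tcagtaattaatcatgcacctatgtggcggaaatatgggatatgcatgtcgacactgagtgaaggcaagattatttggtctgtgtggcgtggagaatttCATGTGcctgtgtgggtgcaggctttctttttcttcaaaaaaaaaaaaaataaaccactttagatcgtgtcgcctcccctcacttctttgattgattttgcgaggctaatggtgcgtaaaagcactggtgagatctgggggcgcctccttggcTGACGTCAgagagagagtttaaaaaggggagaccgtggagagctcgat
The CRE letters stood in the *Sst* window, starting 2 bases past the annotated start, and not in that of *Ghrl*. They occurred in 1.83% of the 33469 windows of this length in the RefSeq table, and in 1 of the 7 members listed there (*Cck*, *Sct* and *Chga* are not among them). *Ghrl* and *Sst* each had 1 E-box, as 72.1% of all windows had at least 1. These matches describe the letters only and were not tested for binding.

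*Sct* encodes secretin, which is released by duodenal acid and makes the pancreas secrete bicarbonate (1387257_at). Its signal was 224 and 195 in WR, 298 and 230.05 in DSW1200, 237 and 188 in SeW, and 270.0 and 377 in TW. Both TW arrays were above all WR and SeW arrays, while DSW1200 overlapped with TW and with SeW and lay above both WR arrays. The WR mean was 209 ± 20.6 and the TW mean 323 ± 75.4 (SD, n = 2 each), a log2 difference of -0.61 (SE 0.22, interval -1.10 to -0.12, limma adjusted p = 0.472). The SeW mean was 212 ± 34.6, a difference from TW of -0.60 (interval -1.09 to -0.11, adjusted p = 0.179). Both were smaller without TW replicate 2: the WR difference was -0.37 and the SeW difference -0.35. DSW1200 differed from TW by -0.28 (interval -0.78 to 0.21). As deposited, *Sct* signals were 355 and 279 in SeW and 234 and 255 in TW, so the SeW difference turned to 0.37, or 0.55 below the median gene, while the WR difference stayed below 0. For SeW against TW, 12.4% of the tested genes lay lower still as deposited (11.6% after quantile normalization).

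*Cck* encodes cholecystokinin, which contracts the gallbladder and stimulates pancreatic enzyme release after fat and protein meals (1387032_at). Its signal was 242 and 179 in WR, 189.9 and 253 in DSW1200, 332 and 249 in SeW, and 222 and 282 in TW. Both SeW arrays were above both WR arrays, and every other pair of groups overlapped. The SeW mean was 290.4 ± 58.8 and the TW mean 252 ± 42.6 (SD, n = 2 each), a log2 difference of 0.20 (SE 0.23, interval -0.33 to 0.72, limma adjusted p = 0.687). WR lay at -0.26 (interval -0.79 to 0.26) and DSW1200 at -0.19 (interval -0.72 to 0.33) from TW. As deposited the *Cck* signals were 490.3 and 372 in SeW and 194 and 189.5 in TW. There *Cck* passed the test against TW with a difference of 1.16 (limma adjusted p = 0.00972) and against DSW1200 with 1.31 (adjusted p = 0.00609), with the median gene itself 0.92 and 0.84 higher in SeW. Of all 9257 genes tested as deposited, 47.5% passed in SeW against TW and 40.4% against DSW1200, so these calls do not set *Cck* apart.

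*Gip* encodes the incretin of K cells, which raises insulin release after meals (1369898_a_at). Its signal was 327 and 259.5 in WR, 344 and 288 in DSW1200, 291 and 255 in SeW, and 373 and 314 in TW. The SeW arrays were below both TW arrays, and the other groups overlapped with TW. The SeW mean was 273 ± 26.0 and the TW mean 344 ± 41.6 (SD, n = 2 each), a difference of -0.33 (SE 0.19, interval -0.75 to 0.09, limma adjusted p = 0.363), which turned to 0.64 as deposited. Without TW replicate 1 it was -0.21. WR lay at -0.23 (interval -0.65 to 0.18; -0.066 without WR replicate 2 and -0.40 without WR replicate 1) and DSW1200 at -0.12 (interval -0.54 to 0.30) from TW.

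*Nts* encodes neurotensin, which slows gastric emptying and aids fat absorption (1380967_at). Its signal was 31.9 and 21.7 in WR, 37.1 and 12.2 in DSW1200, 23.6 and 20.1 in SeW, and 23.2 and 31.0 in TW. The DSW1200 arrays were the highest and the lowest of all 8, and all groups overlapped. Its within-group SD was 0.62 log2 units, against 0.17 for *Ghrl* to 0.29 for *Cck* among the other compared members. The differences from TW were -0.029 in WR (interval -1.08 to 1.02), -0.33 in DSW1200 (interval -1.38 to 0.72) and -0.30 in SeW (interval -1.35 to 0.75), so changes of 2-fold in either direction lay inside the WR interval.

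*Gcg* encodes proglucagon, the source of GLP-1 and GLP-2 in L cells (1369888_at). Its signal was 3.01 and 3.23 in WR, 2.78 and 10.4 in DSW1200, 9.81 and 6.61 in SeW, and 0.338 and 6.85 in TW. *Tac1* encodes the precursor of substance P (1369309_a_at). Its signal was 4.80 and 1.38 in WR, 0.825 and 11.1 in DSW1200, 2.76 and 0.788 in SeW, and 0.669 and 4.81 in TW. Mean signals over the 8 arrays (geometric means, here and wherever 1 mean over all arrays is given) of 4.33 for *Gcg* and 2.36 for *Tac1* lay under the level of 6.69 at which genes were compared. The arrays of 1 group differed by more than the group means did for *Gcg* in TW and for *Tac1* in DSW1200, and no direction is given for either gene.

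*Chga* encodes chromogranin A, a common marker of endocrine granules (1387235_at). Its signal was 98.0 and 62.3 in WR, 100.4 and 92.0 in DSW1200, 88.4 and 83.3 in SeW, and 96.0 and 126 in TW. SeW lay below both TW and both DSW1200 arrays, but inside the range of WR. The differences from TW were -0.49 in WR (SE 0.24, interval -1.04 to 0.05, limma adjusted p = 0.545), -0.20 in DSW1200 (interval -0.74 to 0.35) and -0.36 in SeW (interval -0.91 to 0.19, adjusted p = 0.453). The WR value was -0.82 without WR replicate 1 and -0.17 without WR replicate 2, and the SeW value -0.56 without TW replicate 1 and -0.16 without TW replicate 2. The SeW value turned to 0.60 as deposited.

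*Chgb* encodes chromogranin B, the second granin of the endocrine granule (1368034_at). Its signal was 299 and 236 in WR, 263 and 297 in DSW1200, 285 and 197 in SeW, and 304 and 257 in TW. All 4 groups overlapped. The differences from TW were -0.075 in WR (interval -0.56 to 0.41), -0.00027 in DSW1200 (interval -0.48 to 0.48) and -0.24 in SeW (interval -0.72 to 0.24). *Chgb* was thus the member with the smallest DSW1200 difference from TW.

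**Figure D1:**
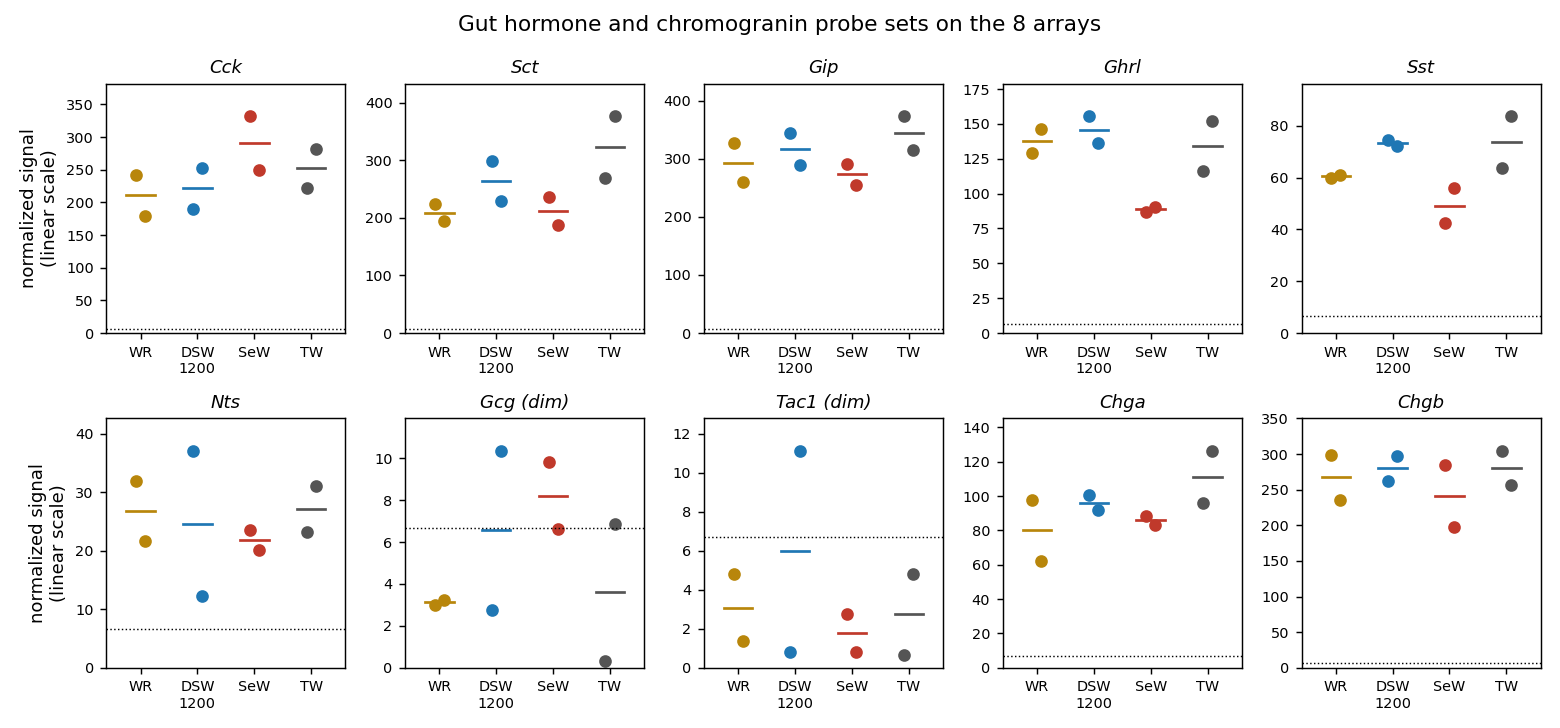
Normalized signal (linear vertical axis from 0) of the 10 hormone and chromogranin probe sets in WR, DSW1200, SeW and TW. Points are single arrays, bars the mean of 2 arrays, and the dotted line the signal of 6.69 under which genes were not compared. The SeW arrays of *Ghrl* (86.9 and 90.7) and of *Sst* (42.4 and 55.9) lie below all other arrays, a direction that turns for both against TW with the values as deposited, and *Gcg* and *Tac1* lie mostly under the dotted line. The share of all tested genes with SeW arrays below all other arrays was not counted.

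Across the members, by limma 0 of the 8 compared genes passed adjusted p 0.05 in WR against TW, where 0.0108% of all tested genes passed, and 1 had an unadjusted p under 0.05 (*Sct*; 9.7% of all genes). In DSW1200 against TW by limma 0 members passed and 0 of all 9258 genes did, with 0 members at an unadjusted p under 0.05 and 7.92% of all genes. In SeW against TW by limma 0 members passed, beside 1.91% of all genes, and 3 had an unadjusted p under 0.05 (*Ghrl*, *Sct* and *Sst*; 19.6% of all genes). In SeW against DSW1200 by limma 0 members passed, beside 2.72% of all genes, and 2 had an unadjusted p under 0.05 (*Ghrl* and *Sst*; 20% of all genes). The limma F test over WR, DSW1200, SeW and TW called 0 members and 0.616% of all genes. It gave unadjusted p-values of 0.0164 for *Ghrl*, 0.0582 for *Sct* and 0.0722 for *Sst* and larger ones for the other 5. Thus 1 of the 8 members was under 0.05 in the F test, beside 17.6% of all genes. With the values as deposited 1 of the 8 members passed in SeW against TW, in SeW against DSW1200 and in the F test (*Cck* each time, higher in SeW), beside 47.5%, 40.4% and 29.9% of all tested genes.

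Against TW the SeW mean was lower for 7 of the 8 compared members after quantile normalization, beside 53.5% of all tested genes, and higher for all 8 as deposited. Both SeW arrays lay below both TW arrays for 5 of them (*Chga*, *Ghrl*, *Gip*, *Sct* and *Sst*), beside 29.1% of all genes. The WR mean was lower for 7 members, beside 51.1% of all genes, with no overlap for 2 (*Sct* and *Sst*, 21.3% of all genes). As deposited the WR mean was lower only for *Sct* (-0.30) and *Chga* (-0.12), and *Sst* turned to 0.13. After quantile normalization the DSW1200 mean was lower for 6, beside 52.4% of all genes, and both arrays lay below both TW arrays for 0 of the 8 (19.2% of all genes). In SeW against DSW1200 the mean was lower for 6, beside 53.1% of all genes, with no overlap for 3 (*Chga*, *Ghrl* and *Sst*; 29.5% of all genes), and these means too were higher for all 8 as deposited. Arrays lay wholly above those of the other group for 0 members in WR (18.4% of all genes), DSW1200 (16.6%) and SeW (22.1%) against TW and in SeW against DSW1200 (24.3%). A 2-fold difference, the criterion in the study's methods, was reached by 0 members, beside 4.8% of all genes in WR, 4.26% in DSW1200 and 6.8% in SeW against TW and 6.2% in SeW against DSW1200. The median difference from TW of the 6 compared hormones was -0.25 in WR (all genes -0.011), -0.16 in DSW1200 (all genes -0.021) and -0.46 in SeW (all genes -0.042). The 3 comparisons share the TW arrays.

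**Figure D2:**
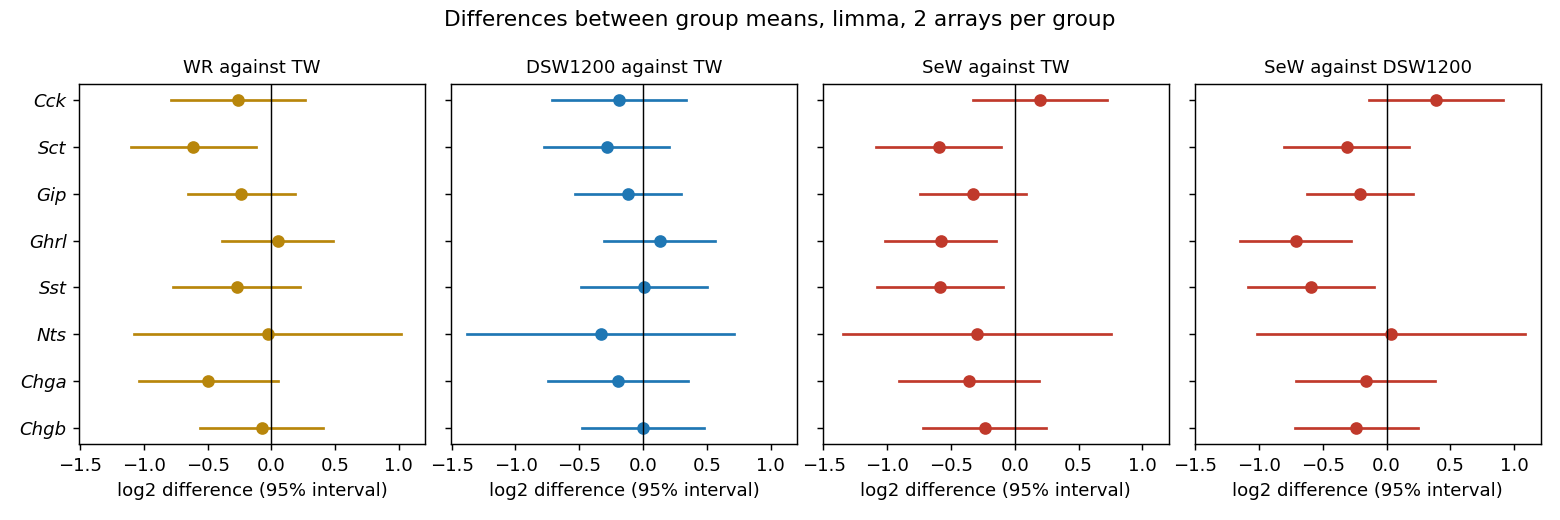
Log2 differences (horizontal axis) for the 8 compared members in WR, DSW1200 and SeW against TW and in SeW against DSW1200, from quantile-normalized signals. Points are differences between means of 2 arrays and lines their 95% intervals from limma. The intervals of *Ghrl*, *Sst* and *Sct* in SeW against TW end below 0 (at -0.15, -0.09 and -0.11), none with an adjusted p under 0.05, and these SeW directions turn with the values as deposited.

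Over the 8 arrays, which share groups and scaling, *Sst* and *Ghrl* followed each other most closely of all pairs of compared members (Pearson r = 0.85 of log2 values), followed by *Sct* and *Chga* (r = 0.84). *Cck* and *Ghrl* ran most nearly opposite (r = -0.58). Outside the members, the 3 tested genes most like *Ghrl* in this measure were *Washc3*, *Ankrd49* and *Aggf1* (r = 0.98 each). *Sct* was most like *Zswim8*, *Eif2ak1* and *Tubgcp4* (r = 0.97 each), and *Gip* most like *Zfp593*, *Atxn2l* and *Abcc6* (r = 0.95 to 0.96).

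**Figure D3:**
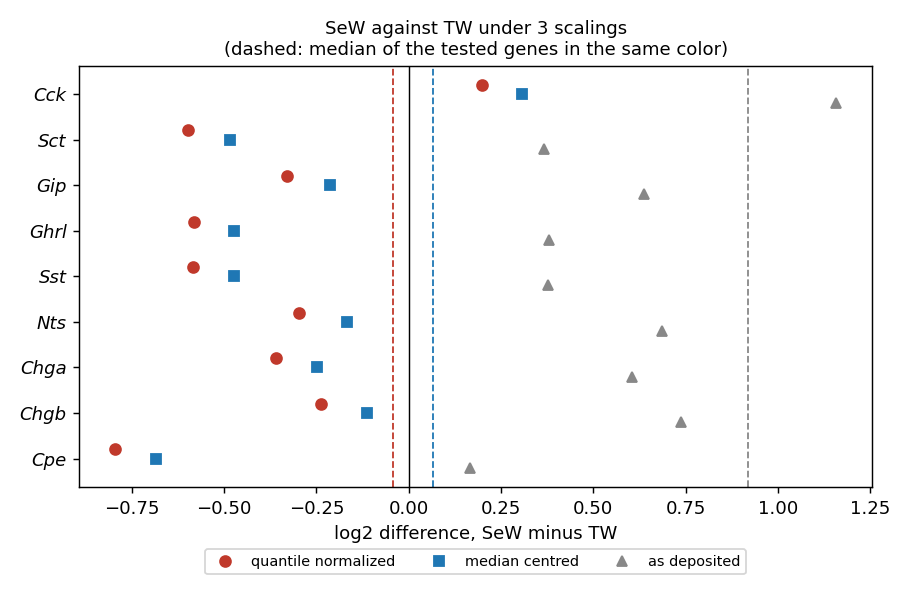
Log2 difference between SeW and TW (horizontal axis) for the 8 compared members and *Cpe* under 3 scalings of the same arrays. Dashed lines show the median of the tested genes under each scaling. As deposited, all 8 members and *Cpe* lie above 0 but only *Cck* (1.16) lies right of the median gene (0.92); after quantile normalization only *Cck* (0.20) is above 0.

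Prohormones are trimmed by carboxypeptidase E, which removes the basic residues left after cutting, and *Cpe* was lower in SeW. Its signal was 143 and 133 in WR, 159.8 and 189 in DSW1200, 81.95 and 85.2 in SeW, and 135 and 156 in TW. Both SeW arrays lay below all other 6. *Cpe* fell by 1.05 on the log2 scale in SeW against DSW1200 (SE 0.18, limma adjusted p = 0.0232), and its difference from TW was -0.80 (SE 0.18, adjusted p = 0.0540), which turned to 0.17 as deposited. The call against DSW1200 was lost as deposited (-0.13) and with median centring (-0.86, adjusted p = 0.196), when dim genes were kept (0.0629), when the fit had no intensity trend (0.0987), and without any 1 of the 4 SeW and DSW1200 arrays or of the 2 WR arrays (0.0536 to 0.184).

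Of 28 listed genes of granules and prohormone processing, 26 were on the array and 13 bright enough to compare. *Cpe* in SeW against DSW1200 was the only call among them in the 4 comparisons, beside 2.72% of all genes in that comparison. Neighbouring steps of the pathway had other patterns. *Pam*, which amidates the ends of peptides such as cholecystokinin and secretin, lay at 0.35 in SeW against TW (adjusted p = 0.445). *Furin*, a general proprotein convertase, lay at -0.031 and *Cpd*, a carboxypeptidase related to *Cpe*, at 0.21 (adjusted p = 0.953 and 0.726). The convertase *Pcsk2* was dim, with a mean signal of 1.29, and no probe set was named for *Pcsk1*. The list's median was 0.16 in SeW against TW, 0.037 in DSW1200 and -0.072 in WR. In SeW against DSW1200, the comparison with the *Cpe* call, the median was 0.30, with 7 genes higher and 6 lower. There *Pam* lay at 0.31, *Furin* at 0.39 and *Cpd* at -0.11.

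**Figure D4:**
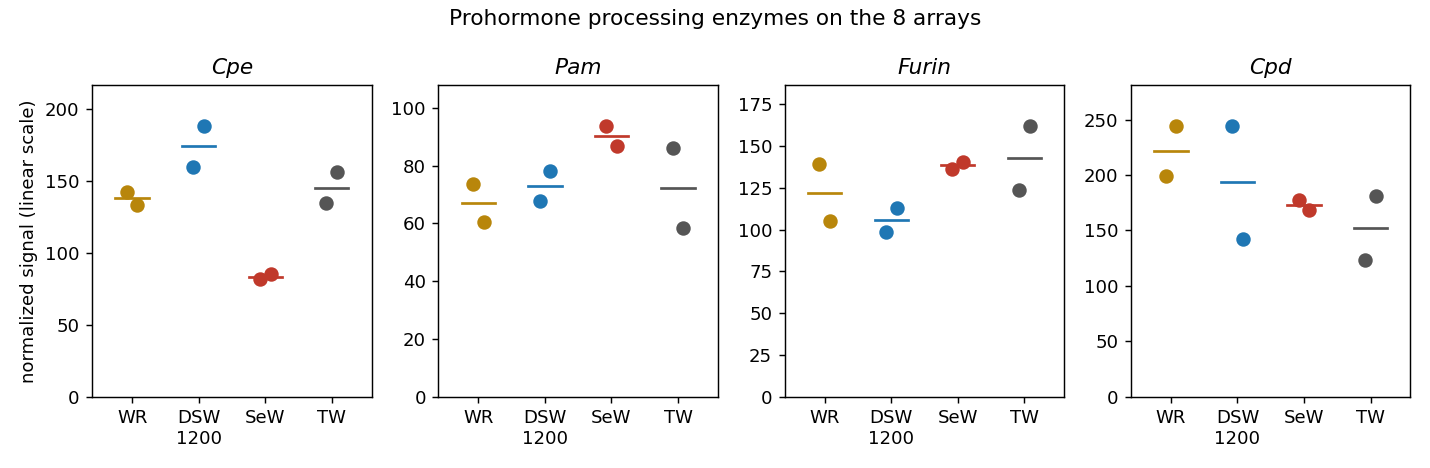
Normalized signal (linear vertical axis from 0) of 4 prohormone processing enzymes in WR, DSW1200, SeW and TW. Points are single arrays and bars the mean of 2 arrays. *Cpe* lies at 81.95 and 85.2 on the SeW arrays, below the other 6 (a direction against TW that turns with the values as deposited), while *Pam*, *Furin* and *Cpd* in SeW overlap with TW or lie above it.

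Of 26 transcription factors listed as enteroendocrine, 18 were on the array. The 10 dim ones included *Neurog3*, the factor that starts this lineage (mean signal 1.25), *Pax4*, *Pax6*, *Isl1* and *Nkx2-2*. By limma 0 of the 8 compared factors passed in any of the 4 comparisons. An unadjusted p under 0.05 was reached by 2 in WR (*Mlxipl* and *Sox4*, 9.7% of all genes), 1 in DSW1200 (*Mlxipl*, 7.92%) and 1 in SeW (*Onecut2*, 19.6%) against TW. In SeW against DSW1200 it was reached by 2 (*Mlxipl* and *Onecut2*, 20% of all genes). *Neurod1*, which acts after *Neurog3*, had mean signals of 11.1 in WR, 13.3 in DSW1200, 10.9 in SeW and 10.1 in TW. *Mlxipl*, the carbohydrate response factor ChREBP, lay at -0.70 in WR (adjusted p = 0.373) and -0.44 in DSW1200 (adjusted p = 0.617) against TW, and at 0.60 in SeW against DSW1200 (adjusted p = 0.112). *Onecut2*, a homeobox factor of the duodenum, lay at 0.42 in SeW against TW (adjusted p = 0.176).

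Of 18 further genes of gut peptides and amines, 15 were on the array and 6 bright enough to compare. By limma 0 of these passed in any comparison, with at most 1 at an unadjusted p under 0.05, beside 7.92% to 20% of all genes. Unlike most members, 5 of the 6 had higher means in WR, 5 in DSW1200 and 6 in SeW than in TW. The medians were 0.66, 0.83 and 0.53, and means were lower for 51.1%, 52.4% and 53.5% of all genes. In SeW against DSW1200, 3 were higher and 3 lower (median -0.15). Of the 6, *Npy* and *Slc18a1* were close to the level of comparison (mean signals 7.34 and 7.22). *Gast*, the gastrin gene of G cells in the stomach and duodenum, had signals of 19.7 and 13.8 in WR, 33.2 and 34.1 in DSW1200, 25.2 and 13.1 in SeW, and 11.8 and 20.3 in TW. The DSW1200 arrays were above all other 6, with a log2 difference from TW of 1.12 (SE 0.41, limma adjusted p = 0.617). Both DSW1200 arrays lay above both TW arrays for 16.6% of all genes. *Ddc*, which makes serotonin and dopamine from their precursors and is also present in enterocytes, lay at 0.99 in SeW against DSW1200 (adjusted p = 0.170). *Pyy*, the peptide YY of distal L cells, was dim (mean signal 1.36).

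Some markers of other cell types differed between the same groups, and their part in the hormone differences was not tested. Of all tested genes, 0.0108% passed in WR, 0% in DSW1200 and 1.91% in SeW against TW, and 2.72% in SeW against DSW1200. In the same order, limma gave an unadjusted p under 0.05 for 9.7%, 7.92%, 19.6% and 20% of all genes. In SeW against TW, 9 enterocyte markers had higher means and 2 had lower ones (*Apoa1* -0.24 and *Cdh17* -0.13), beside 53.5% of all genes lower. The 11 enterocyte markers on the array, all bright enough to compare, summed to a signal of 48655 and 49334 in SeW, against 43014 and 42206 in TW. One of them, sucrase-isomaltase (*Si*), passed the test as higher in SeW (1.17, limma adjusted p = 0.0379; with median centring 0.71, adjusted p = 0.292; without either SeW array 0.176 and 0.192). Of 3 compared Paneth cell markers, the defensin *Defa24* passed as higher in WR (3.42, adjusted p = 0.00934) and in SeW (2.13, adjusted p = 0.0166) against TW. Both calls were lost without either array of the group itself (adjusted p = 0.0678 and 0.331 in WR, 0.104 and 0.0857 in SeW), and *Lyz2*, a lysozyme of the same list, lay at -0.21 in SeW against TW. Of 16 enteric neuron and glia markers, 2 were bright enough to compare, and *Vip*, *Elavl4* and *S100b* had mean signals of 1.25, 1.22 and 1.57. The sum of this list was 72.1 and 57.7 in SeW and 64.3 and 80.9 in TW. Of 10 stomach markers, 3 were bright enough (*Gast*, *Tff1* and *Tff2*), with *Atp4a* and *Pgc* at 2.91 and 1.03. The stomach list summed to 131 and 69.2 in SeW, 59.8 and 204 in TW, and 203 and 101 in DSW1200, where *Gast* was highest. Of 17 pancreatic markers, 7 were bright enough, among them *Pdx1*, which the duodenum also expresses and which fell by 1.47 on the log2 scale in SeW against TW (limma adjusted p = 0.0123; as deposited -0.52, adjusted p = 0.111; without either SeW array 0.0769 and 0.0573). Against DSW1200 *Pdx1* fell by 1.70 in SeW (adjusted p = 0.00538), a call kept as deposited (-0.80, adjusted p = 0.0292) and with any 1 array left out, and lost when the fit had no intensity trend (0.0755). Without *Pdx1* the pancreatic list summed to 114 and 100.3 in SeW, 243 and 88.2 in TW, 152 and 660 in WR, and 114 and 213 in DSW1200. The part of the high sum on WR replicate 2 in the WR differences was not tested. *Ins2* had a mean signal of 1.21. These 3 summed lists overlapped between SeW and TW. Of 7 compared immune markers, 6 had lower means in SeW than in DSW1200, beside 53.1% of all genes. The median of the 7 was -0.56, the value of *Lyz2*, which is also on the Paneth list. Among the immune markers *Gzma*, granzyme A of cytotoxic lymphocytes, passed the test. Its signal was 67.1 and 78.3 in SeW and 189 and 164 in DSW1200, a difference of -1.28 (limma adjusted p = 0.0204). That call was lost as deposited (-0.37, adjusted p = 0.249), with median centring (0.106), when dim genes were kept (0.0761), when the fit had no intensity trend (0.0987), and without any 1 of the SeW and DSW1200 arrays (0.0612 to 0.130). Of 11 compared muscle and fibroblast markers, 10 had higher means in WR, 11 in DSW1200 and 10 in SeW than in TW. Lower means were found for 1, 0 and 1 of them, beside 51.1%, 52.4% and 53.5% of all genes. By limma 0 passed, and 2 in WR, 0 in DSW1200 and 1 in SeW had an unadjusted p under 0.05. All 3 comparisons share the TW arrays, on which the 12 listed markers summed to 407 and 228. By limma 0 of 8 goblet, 0 of 4 stem and transit amplifying and 0 of 3 tuft cell markers passed in any comparison. At most 2 of each had an unadjusted p under 0.05, beside 7.92% to 20% of all genes. For the stem and transit amplifying markers it was 2 of 4 in each comparison. Against TW, 4 had higher means in WR (median 0.73), 3 in DSW1200 (0.25) and 4 in SeW (0.54), and 0, 1 and 0 had lower ones. *Mki67* lay at 0.90 in WR and 0.89 in SeW against TW. *Pcna* lay at -0.80 in DSW1200 against TW (limma adjusted p = 0.617) and at 0.94 in SeW against DSW1200 (adjusted p = 0.0509).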

How the data were processed

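RNA of intestinal epithelium from 8 samples (2 each of WR, DSW1200, SeW and TW) was hybridized to Affymetrix Rat Genome 230 2.0 arrays. The authors deposited MAS5 signal intensities on a linear scale; the version and scaling target are not given in the sources used here. The study's methods state quantile normalization and a 2-fold criterion, but array medians differed, so the intensities were quantile normalized here over all 31099 probe sets, floored at 1 and log2 transformed. Probe sets were named from the platform annotation, updated through Entrez gene numbers (20758 probe sets) or accessions (2), with 66 array symbols kept. Probe sets with several genes (436), no gene symbol (9831) or a control role (57) were left out. Each gene was represented by its brightest probe set, and 9258 of 14217 genes with a mean signal over 6.69 were tested. Groups were compared with limma 3.58.1 in R 4.3.3: 1 model over the 8 arrays with group as its term (4 residual degrees of freedom), an intensity trend and Benjamini-Hochberg adjustment over all tested genes (threshold 0.05). Standard errors of log2 differences had a median of 0.264. The script was tested on simulated data. The number of arrays limits the precision.

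The members and gene lists were chosen with earlier results of these data known. Genes named in the text were the 10 members, up to 4 list genes past the threshold or otherwise the 2 with the smallest p in a list, the 3 genes most like *Ghrl*, *Sct* and *Gip* across arrays, and list genes given by level; *Pam*, *Furin*, *Cpd* and *Neurod1* were named for their role. As alternatives, the values were used as deposited or median centred, dim genes were kept, 32 was added to each signal, probe sets of a gene were averaged, the trend was dropped, only the compared groups were fitted, the replicate number was added as a block, single arrays were left out, and a 2-fold criterion was counted. Deviations of same-numbered arrays correlated between -0.065 and 0.040 across groups, so the numbers were not taken as pairs. Promoter sequences are RefSeq's (GRCr8).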

Additional observations from a re-analysis of the deposited data

How the results depend on the processing

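By limma 0 of the 8 compared members passed adjusted p 0.05 under every alternative, with 2 exceptions. With the values as deposited 1 member (*Cck*, higher in SeW) passed in SeW against TW, in SeW against DSW1200 and in the F test, beside 47.5%, 40.4% and 29.9% of all tested genes. Leaving out 1 array at a time gave 0 to 1 members in SeW against DSW1200, the 1 being *Ghrl* without TW replicate 1, and 0 elsewhere. With the replicate number as a block the count was 0 in each comparison, and no member's call changed.

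Directions turned mostly as deposited, where array brightness is left in. In SeW against TW the log2 differences were then 0.37 for *Sct*, 0.64 for *Gip*, 0.38 for *Sst*, 0.38 for *Ghrl*, 0.69 for *Nts*, 0.60 for *Chga* and 0.74 for *Chgb*. In SeW against DSW1200 they were 0.61 for *Sct*, 0.69 for *Gip*, 0.30 for *Sst*, 0.21 for *Ghrl*, 0.74 for *Chga* and 0.68 for *Chgb*. In WR against TW they were 0.059 for *Cck*, 0.093 for *Gip*, 0.13 for *Sst*, 0.42 for *Nts* and 0.26 for *Chgb*, and in DSW1200 against TW 0.059 for *Chgb*. Median centring turned *Sst* in DSW1200 (-0.048) and *Ghrl* in WR (-0.091) against TW and *Chga* in SeW against DSW1200 (0.012). An offset of 32 turned *Nts* in SeW against DSW1200 (-0.038), and fitting only the arrays compared turned *Chgb* in DSW1200 against TW (0.0020).

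With 1 array left out, these differences changed sign, the widest being *Nts* in DSW1200 against TW (-0.33 over 8 arrays). Against TW in DSW1200 the values ran from -0.40 to 0.018 for *Cck*, -0.25 to 0.0097 for *Gip*, -0.19 to 0.20 for *Sst*, -0.064 to 0.32 for *Ghrl*, -1.14 to 0.47 for *Nts*, -0.40 to 0.0024 for *Chga* and -0.12 to 0.12 for *Chgb*. Against TW in SeW they ran from -0.0072 to 0.41 for *Cck* and -0.51 to 0.031 for *Chgb*, and in WR from -0.14 to 0.24 for *Ghrl*, -0.31 to 0.25 for *Nts* and -0.24 to 0.097 for *Chgb*. In SeW against DSW1200 they ran from -0.76 to 0.84 for *Nts* and -0.50 to 0.029 for *Chgb*. The cause of these changes was not tested. With 2 arrays a group, signals near background such as those of *Gcg* and *Tac1* carry no direction.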

Other observations

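Receptors and degrading enzymes of these hormones were mostly under the level of comparison in the epithelial fraction. Of 24 listed genes, 23 were on the array and 6 bright enough to compare. By limma 1 of these passed in SeW against TW, beside 1.91% of all genes, and 0 in the other comparisons. The receptors of secretin (*Sctr*, mean signal 3.88), GIP (*Gipr*, 3.27), GLP-1 (*Glp1r*, 2.75), GLP-2 (*Glp2r*, 1.54), ghrelin (*Ghsr*, 3.26) and all 5 somatostatin receptors were dim. *Mme*, the brush border peptidase neprilysin that cleaves several gut peptides, passed the test as higher in SeW: its signal was 2322 and 2713 in SeW against 1609 and 1352 in TW, a log2 difference of 0.77 (SE 0.16, limma adjusted p = 0.0437). The call was lost with median centring (0.68, adjusted p = 0.317), with no filter (0.133), without an intensity trend (0.170), with the mean of probe sets (0.0619), with the replicate block (0.0673), with only the arrays compared (0.0836), and without either SeW array (0.133 and 0.307), either WR array, DSW1200 replicate 2 or TW replicate 2 (0.0510 to 0.119). *Dpp4*, which inactivates GIP and GLP-1, lay at 0.15 (adjusted p = 0.590). *Vipr1*, a receptor of the secretin family, lay at 0.46 (adjusted p = 0.114), with 764 and 783 in SeW and 592 and 535 in TW.

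Of 20 listed nutrient and bile acid sensors, 8 were on the array and 5 bright enough to compare. By limma 0 passed in the 4 comparisons, with at most 2 at an unadjusted p under 0.05, beside 7.92% to 20% of all genes. *Slc15a1*, the peptide transporter PEPT1, lay at 0.97 in SeW against TW (adjusted p = 0.0722). The calcium-sensing receptor *Casr* was dim, with a mean signal of 4.12.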
